A study of Mus musculus with 18 samples.

Results

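The mir-297, mir-466, mir-467 and mir-669 families are rodent microRNA families, most of whose gene copies lie in an intron of Sfmbt2. They were taken from the count table by name, as every row called mir-297, mir-466, mir-467 or mir-669 with any suffix letter. This gave 44 of 1006 microRNA rows, of which 3 were mir-297, 17 were mir-466, 8 were mir-467 and 16 were mir-669 rows. The 18 small RNA libraries were made from Baf3 cells, which are murine pro-B cells kept in interleukin-3. All cells carried reporters for mutated miR-15a and miR-16, Cas9 and 1 guide RNA, and had been selected with puromycin. Control cells had guides against Rag1, SAFB cells had guides against Safb1 and Safb2 together, and ERH cells had guides against Erh. Each genotype had 2 guides, each guide gave 1 polyclonal population, and each population gave 3 libraries labelled batch 1 to batch 3, here replicate 1 to 3. Cells that had lost cluster assistance were sorted on derepression of the miR-15a reporter and regrown, so the knockout populations are a selected subset of edited cells; how control cells were sorted is not given in the sources used here. A microRNA table does not measure Rag1, Safb1, Safb2 or Erh, and the knockouts were not checked here.

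MicroRNAs are cut from hairpins in longer transcripts, first by the Microprocessor and then by Dicer, and their seed, bases 2 to 8, pairs with target messenger RNAs. SAFB proteins and ERH act with the Microprocessor, and the study asked how their loss changes microRNA levels. Sfmbt2 encodes a Polycomb-type protein and is imprinted in rodents, expressed from the paternal copy in placenta. The microRNA block in its intron arose by repeated local duplication and is known for its expression in placenta and in embryonic stem cells. Many of its hairpins come from simple repeats of alternating C and A, read as G and U on the other strand, so close rows can share reads.

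Repeats of this kind stand in the mature sequences of the rows outside Sfmbt2. RefSeq tables of mouse build GRCm38.p6 gave a mature sequence for 8 of the 44 rows, all of them with their gene copy outside Sfmbt2, printed here 5′ to 3′ because they include the 3 rows whose levels moved together, with the seed in capitals.
miR-466i-3p: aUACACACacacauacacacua
miR-466q: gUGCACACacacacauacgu
miR-466k: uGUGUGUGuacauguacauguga
miR-466j: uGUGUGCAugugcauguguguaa
miR-467f: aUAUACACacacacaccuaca
miR-467g: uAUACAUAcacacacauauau
miR-467h: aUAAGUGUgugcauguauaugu
miR-669n: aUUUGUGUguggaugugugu

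These 8 sequences were 20 to 23 bases long, with 8 distinct seeds, so no seed was shared among them. The longest run of alternating A and C, or of alternating G and U, was 12 bases in miR-466q and miR-467f, 11 in miR-466i-3p, 9 in miR-466k and miR-467g, 8 in miR-669n and 7 in miR-466j and miR-467h. A run of at least 8 bases means that the RNA holds ACACACAC, CACACACA, GUGUGUGU or UGUGUGUG. The first and the second of these overlap in a longer run, as do the third and the fourth, and together they cover both strands of the repeat. Such a run was present in 6 of the 8 member sequences (75.0%) and in 13 of all 1679 mature sequences of the table (0.774%). Of these 6, miR-466i-3p, miR-466q, miR-467f and miR-467g carry the A and C reading of the repeat, and miR-466k and miR-669n carry the G and U reading.

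Most gene copies lay in Sfmbt2, as the families' description says. By name, 43 rows matched 81 gene copies in build GRCm38, the RefSeq build, while the build behind the counts is not given in the sources used here. Of these copies, 71 lay within Sfmbt2 (chr2:10370510-10595253), spanning chr2:10466663-10518279, or 51.6 kb. All 71 were on the strand of Sfmbt2, none overlapped an exon, and they lay in 1 intron, which is number 11 of a GENCODE transcript of Sfmbt2 (chr2:10461473-10523944). The other 10 copies were elsewhere. This divided the rows into 33 with copies in Sfmbt2 alone, 8 with a copy outside Sfmbt2 alone, and 2 with copies in both places, mir-297a and mir-466f. No gene matched mir-466a, which had 0 counts.

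The 8 rows outside Sfmbt2 were single-copy genes. Mir466i lay at chr13:17747473-17747593, in an intron of the kinase gene Cdk13 on the opposite strand. Mir466q lay at chr3:28419943-28420018, in an intron of the kinase gene Tnik on the same strand. Mir466k lay at chr3:85467377-85467498, in an intron of the annotated gene Gm37240 on the opposite strand. Mir467g lay at chr5:34732853-34732972, in an intron of Grk4, a receptor kinase gene, on the opposite strand. Mir467f (chr11:69635400-69635519) and Mir669n (chr3:115979902-115979955) lay in introns of Fxr2 and Slc30a7, each on the opposite strand. Mir466j (chr10:60960723-60960844) and Mir467h (chr9:115381819-115381939) overlapped no annotated gene. The 3 rows described below as moving together were therefore on chromosomes 13 and 3, apart from the Sfmbt2 block.

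The families had few counts in Baf3 cells. How reads matching several rows were counted is not given in the sources used here, and its part in these low counts was not tested. Of the 44 rows, 22 (50.0%) had at least 1 count in any library and 22 had none in all 18, against 726 of 1006 rows (72.2%) with a count over the whole table. Only 5 members (11.4%) reached 1 CPM (counts per 1000000 counts of a library, whose size was scaled by the TMM method) in at least 3 libraries, against 383 rows (38.1%) overall. The members held 621 of 63217768 microRNA counts, or 9.82 CPM without TMM scaling, and the highest single value was 28 counts. Libraries held 2699323 to 4470073 microRNA counts, so 3 counts, the level that a count of 0 still allows, came to 0.717 to 1.135 CPM in a library and to 0.0475 CPM over all 18. A row at 0 is thus not detected at this depth, and counting intervals and limits given here cover counting error only, since reads need not be separate molecules. The number of member rows detected ranged from 4 to 13 per library.

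Members differed widely in level. mir-466i, mir-466q, mir-467g, mir-297a and mir-466k together held 524 of the 621 member counts (84.4%). All 3 mir-297 rows had counts, with 80 in all, of which mir-297a held 78 and mir-297b and mir-297c 1 each. Among mir-466 rows 8 of 17 had counts, with 377 in all. Among mir-467 rows 3 of 8 had counts, with 121 in all. Among mir-669 rows 8 of 16 had counts, with 43 in all. Of the rows with any count, 6 had counts in 1 library only and 7 had 3 counts or fewer in total. The rows at 0 everywhere were mir-466a, b, c, e, g, l, n, o and p, mir-467a, b, c, d and e, and mir-669b, e, g, i, j, k, m and p.

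**Figure D1:**
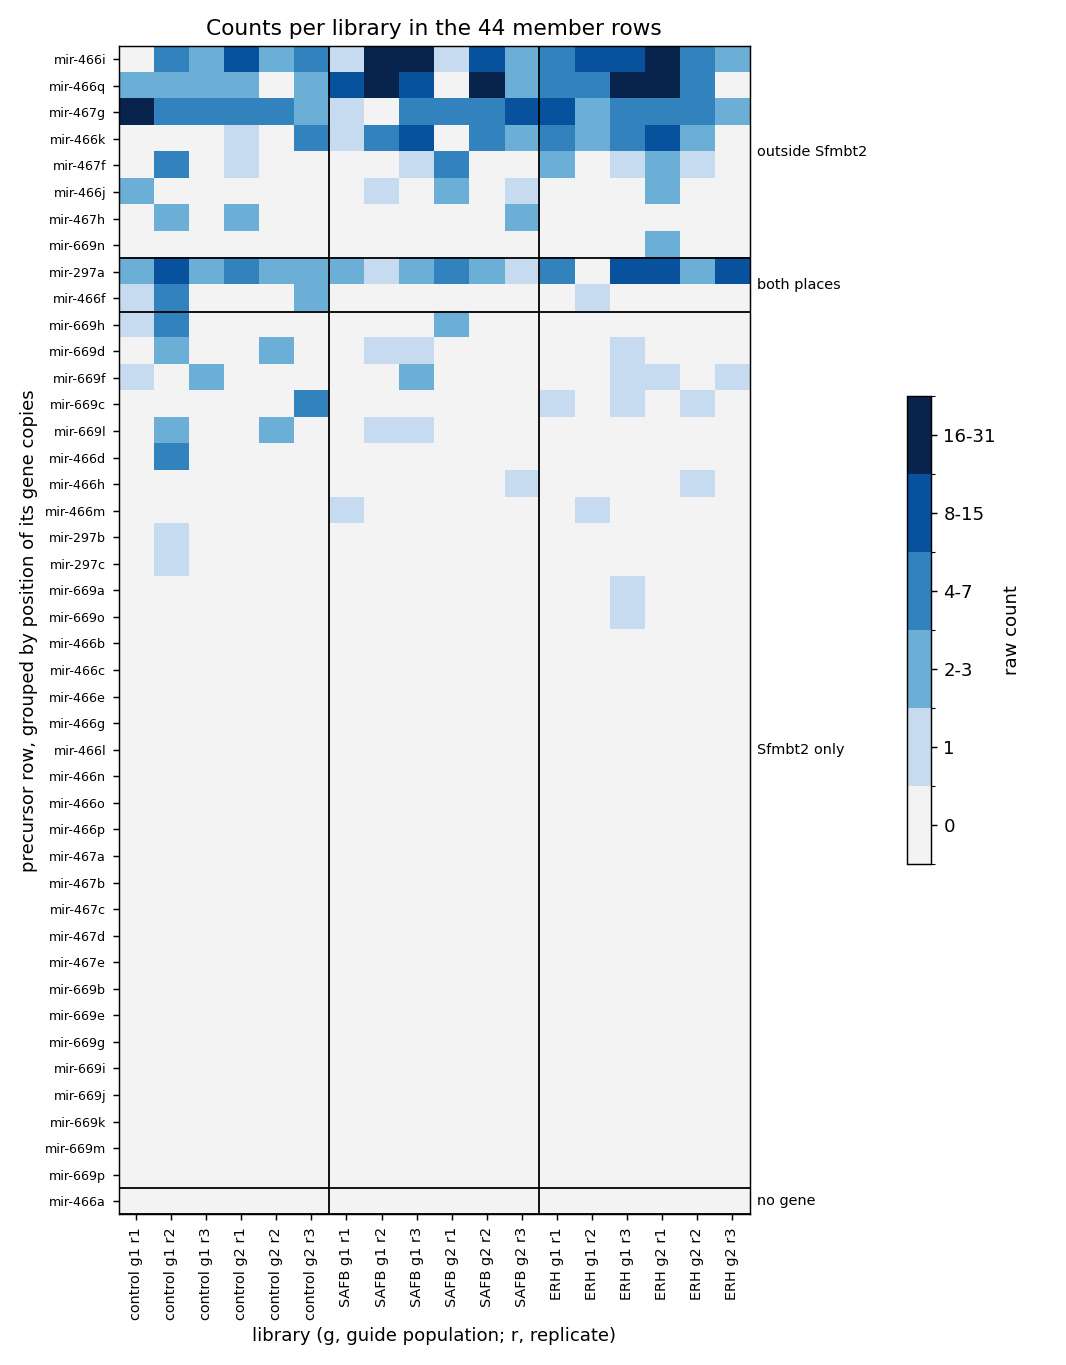
Raw counts of the 44 member rows (vertical axis, grouped by whether their gene copies lie outside Sfmbt2, in both places or in Sfmbt2 alone) in the 18 libraries (horizontal axis; g is the guide population and r the replicate), with darker blue for a higher count. The rows with a copy outside Sfmbt2 hold most counts, and 21 of the 33 rows with copies in Sfmbt2 alone are empty in every library.

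Most counts belonged to rows outside Sfmbt2. All 8 rows outside Sfmbt2 had counts, 483 in all or 77.8% of member counts (7.64 CPM over all libraries). The 33 rows in Sfmbt2 alone had 52 counts (8.37%; 0.823 CPM), 12 of them had any count, and no value exceeded 5 counts. Of their 594 values, 1 per row and library, 563 were 0. The families differed in this. In mir-467 all 121 counts came from mir-467f, g and h, outside Sfmbt2, and the 5 rows in Sfmbt2 had none. In mir-466 the 4 rows outside held 360 counts, the 11 rows in Sfmbt2 alone 9 and mir-466f 8. In mir-669 it was the reverse, since the 15 rows in Sfmbt2 alone held 41 counts and mir-669n, the row outside, held 2. In mir-297 no row lay outside alone, and mir-297a, with copies in both places, held 78 of 80 counts. More gene copies did not go with more counts inside Sfmbt2, where mir-669a (12 copies) had 1 count and mir-467a (10 copies) and mir-466b (8 copies) had 0. The rows in both places had 86 counts (13.8%), and reads of mir-297a or mir-466f cannot be assigned to either place. How the authors treated reads that match several rows, or several copies of 1 row, is not given in the sources used here. Its part in the low counts of rows with many copies was not tested. mir-669d and mir-669l had the same count in 17 of 18 libraries, 4 of them above 0.

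Pooled counts of the Sfmbt2 block were lower in both knockouts than in control, and that rested largely on 1 control library. The 33 rows had 2, 16 and 2 counts in control guide 1 and 0, 6 and 4 in control guide 2 (replicates 1 to 3). They had 1, 2 and 4 counts in SAFB guide 1 and 3, 0 and 1 in SAFB guide 2. They had 1, 1 and 5 counts in ERH guide 1 and 1, 2 and 1 in ERH guide 2. Control guide 1 replicate 2 had the most, with 16 of the block's 52 counts, spread over 6 rows and led by mir-466d and mir-669h with 5 each. It also had the most member rows detected (13). The search given below, for a library far from the other 5 of its genotype, did not flag it for this sum. Over pooled counts, SAFB to control was 11 to 30, a ratio per sequenced count of 0.312 (95% exact interval for counting error 0.141 to 0.64). ERH to control was also 11 to 30, a ratio of 0.323 (0.146 to 0.664). Without control guide 1 replicate 2 the ratios became 0.535 (0.22 to 1.268) and 0.555 (0.228 to 1.316), so both intervals then held 1. Without ERH guide 1 replicate 3, which held 5 of the 11 ERH counts, the ERH ratio moved the other way, to 0.205 (0.07 to 0.5). Within batches 1, 2 and 3 the SAFB ratio was 1.67, 0.077 and 0.719 and the ERH ratio 0.746, 0.131 and 0.964. The lower pooled value was thus carried by batch 2, where control held 22 counts.

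**Figure D2:**
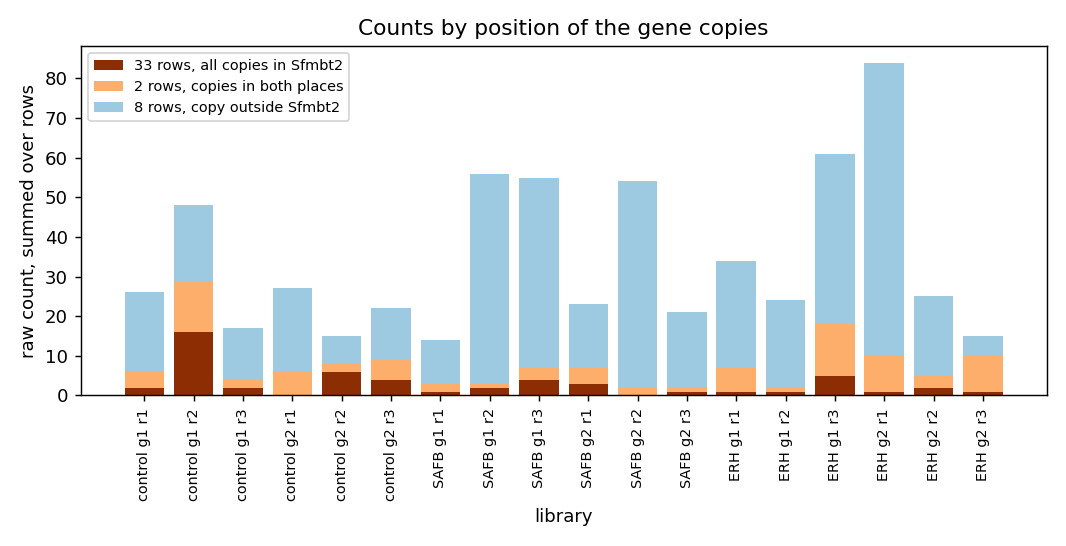
Raw member counts in each library (vertical axis, summed over rows), stacked by gene position: 33 rows in Sfmbt2 alone (dark brown), 2 rows in both places (orange) and 8 rows outside (light blue). The dark part stays at 0 to 6 counts except for 16 in control guide 1 replicate 2, and the tall bars of 5 knockout libraries are mostly the light part.

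For the tests, rows with too few counts were removed from the whole table and edgeR's quasi-likelihood test was fitted to the 273 that remained, with p-values adjusted by the Benjamini-Hochberg method over all 273. Of the members, 2 of 44 (4.55%) passed, mir-466i and mir-466q, against 27.1% of all rows. In SAFB against control 1 member was called at an adjusted p under 0.05, mir-466q, which was higher. Of all rows tested in this comparison 56% were called, 30.8% as higher and 25.3% as lower, so 1 of 2 members is near the background. In ERH against control 0 members were called by edgeR, with 1 at an unadjusted p under 0.05, against a background of 53.8% (26.4% higher, 27.5% lower). DESeq2 called 1 member there, mir-466q, against its own background of 53.8%. In ERH against SAFB 0 members were called, with 0 at an unadjusted p under 0.05, against a background of 39.6% (23.8% higher, 15.8% lower). DESeq2 also called 0 members there, against 40.3% of all rows. The filter was met through knockout libraries, since mir-466q had at most 3 counts and mir-466i at most 9 in a control library, so a higher level in the knockouts was favoured by the choice of tested rows, and the 2 rows do not stand for the 44.

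mir-466q was low in every control library and high in some knockout libraries. It had 2, 3 and 3 counts in control guide 1 and 3, 0 and 3 in control guide 2. It had 8, 20 and 14 counts in SAFB guide 1 and 0, 28 and 3 in SAFB guide 2. It had 4, 6 and 16 counts in ERH guide 1 and 26, 5 and 0 in ERH guide 2. Control stayed at 0 to 3 counts, whereas SAFB ran from 0 to 28 and ERH from 0 to 26, so each knockout overlapped control. In CPM the means were 0.723 ± 0.394 (control), 3.33 ± 2.98 (SAFB) and 2.65 ± 2.52 (ERH), with the SD over 6 libraries each. In SAFB its log2 fold change was 2.12 (SE 0.815; edgeR adjusted p = 0.0314). With the labelled batch as a block it was 2.04 and no longer called (edgeR adjusted p = 0.0502). In ERH it was 1.80 (SE 0.838; edgeR adjusted p = 0.0765), and ERH against SAFB was -0.32 (SE 0.654; edgeR adjusted p = 0.737).

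The call for mir-466q rested on few libraries. Pooled counts were 14 in control, 73 in SAFB and 57 in ERH, a ratio of 4.43 (2.48 to 8.51) for SAFB and 3.59 (1.98 to 6.98) for ERH. Within batches 1, 2 and 3 the SAFB ratio was 1.34, 13.6 and 2.45 and the ERH ratio was 4.47, 3.53 and 2.57, all above 1. Leaving out control guide 2 replicate 2, SAFB guide 1 replicate 2, SAFB guide 1 replicate 3 or SAFB guide 2 replicate 2 ended the SAFB call, with log2 fold changes of 1.65 to 2.43 and edgeR adjusted p of 0.00762 to 0.104 over all 18 such fits. In ERH, leaving out SAFB guide 2 replicate 1 or ERH guide 2 replicate 3 brought mir-466q to a call, with edgeR adjusted p of 0.0221 to 0.253 over the 18 fits. Guide 2 differed from guide 1 by -0.30 in control, -0.40 in SAFB and 0.03 in ERH on the log2 scale, and no member was called between guides, where 0% of rows were called in control and SAFB and 0.366% in ERH. In the 8 comparisons of 1 knockout population with 1 control population its log2 fold change was 1.64 to 2.46, with edgeR adjusted p of 0.124 to 0.325. mir-466q was called in none of the 8, where 35.9% to 48.7% of all rows were called. They share populations, 4 knockout against 2 control, and are not independent.

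**Figure D3:**
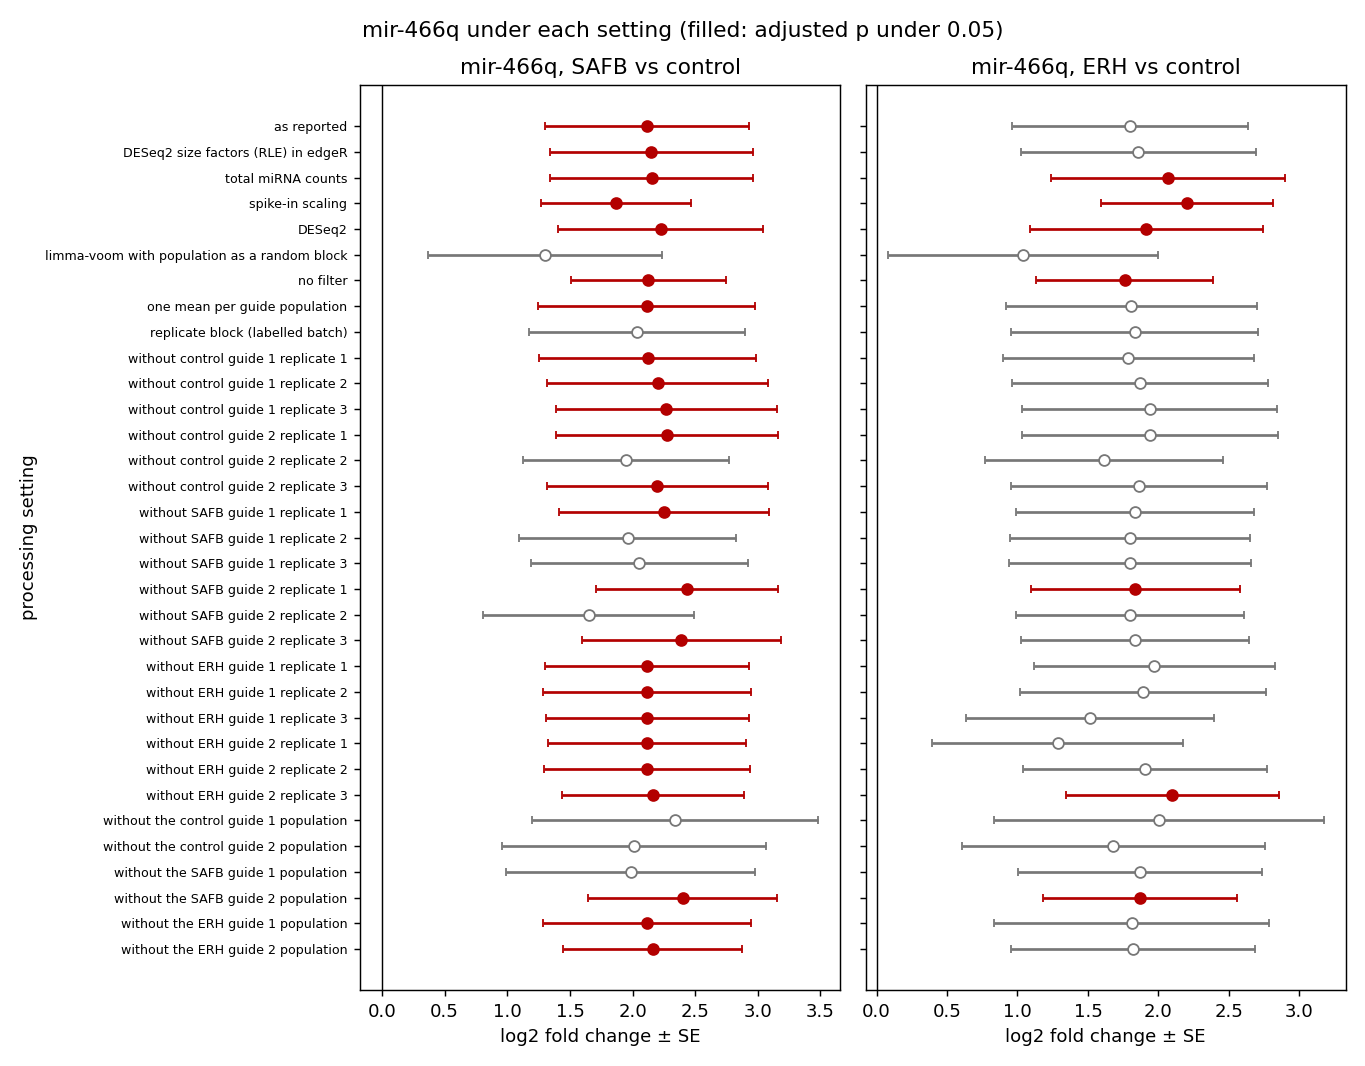
Log2 fold change of mir-466q ± SE (horizontal axis) for SAFB against control (left) and ERH against control (right) under each processing setting (vertical axis); filled red points have an adjusted p under 0.05 and open grey points do not. The SAFB values run from 1.30 to 2.43 and the ERH values from 1.04 to 2.20, all above 0, while the call changes between settings. All settings use the same 18 libraries or parts of them.

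mir-466i, the most counted member, was spread as widely without a call. It had 0, 5 and 3 counts in control guide 1 and 9, 2 and 4 in control guide 2. It had 1, 25 and 19 counts in SAFB guide 1 and 1, 12 and 2 in SAFB guide 2. It had 6, 10 and 15 counts in ERH guide 1 and 25, 6 and 2 in ERH guide 2. In CPM the means were 1.24 ± 1.08 (control), 2.68 ± 2.71 (SAFB) and 2.97 ± 2.13 (ERH; SD, n = 6 each), and the 3 genotypes overlapped. The log2 fold change was 1.12 in SAFB (SE 0.744; edgeR adjusted p = 0.211) and 1.26 in ERH (SE 0.738; edgeR adjusted p = 0.166). The SAFB ratio of pooled counts was 0.186, 4.50 and 2.59 in batches 1, 2 and 3, so its direction was not the same in every batch. The ERH ratio was 2.568, 2.199 and 2.34, above 1 in each batch. Between single populations, SAFB guide 2 against control guide 2 was lower, at -0.29. The other SAFB log2 fold changes were 0.728 to 2.264 and those of ERH 0.767 to 1.895, and none was called.

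mir-466k did not pass the filter but had a like pattern at a lower level. It had 0, 0 and 0 counts in control guide 1 and 1, 0 and 4 in control guide 2. It had 1, 7 and 10 counts in SAFB guide 1 and 0, 6 and 2 in SAFB guide 2. It had 5, 3 and 7 counts in ERH guide 1 and 12, 2 and 0 in ERH guide 2. Again each knockout had libraries within the control range and libraries above it. Without the filter, where 726 rows were tested, its log2 fold change was 2.05 in SAFB (edgeR adjusted p = 0.0829) and 2.18 in ERH (edgeR adjusted p = 0.0559). In that fit 2 of 22 members were called in SAFB, against 20.5% of all rows. mir-466q was higher (edgeR adjusted p = 0.00562), and mir-466f, with 7 counts in control and 0 in SAFB, was lower (edgeR adjusted p = 0.0423). Of those 7 counts 4 came from control guide 1 replicate 2, the library with most counts of the Sfmbt2 block, and 3 of 6 control libraries were at 0. In ERH 1 of 22 was called, mir-466q (edgeR adjusted p = 0.0287), against 23.7% of all rows.

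The same 5 libraries ranked highest for mir-466i, mir-466q and mir-466k. These were SAFB guide 1 replicates 2 and 3, SAFB guide 2 replicate 2, ERH guide 1 replicate 3 and ERH guide 2 replicate 1. They had 12 to 25 counts of mir-466i, 14 to 28 of mir-466q and 6 to 12 of mir-466k, where the other 13 libraries had 0 to 10, 0 to 8 and 0 to 5. The 5 libraries came from all 3 batches and from all 4 knockout populations, and the remaining 7 knockout libraries had 0 to 8 counts of mir-466q. Their depth (2699323 to 4294945 counts) and spike-in share (0.165% to 0.366%) covered almost the whole range of the 18 libraries. Markers of other cell types were a list of 20 rows, of which 16 had counts and mir-206, mir-291a, mir-294 and mir-295 were at 0. mir-218 had the highest mean of the list in each genotype, followed by mir-199a in control and by mir-9 in both knockouts. The summed level of the list ranged from 59.4 to 94.8 CPM over control libraries. It was 247.9 to 419.7 CPM over SAFB and 630.5 to 1844 CPM over ERH libraries. In the 5 libraries it was 247.9 to 1313 CPM. Those sums did not overlap between genotypes, but how many rows of the whole table do not overlap was not counted. Most of the knockout sums came from mir-218 (means of 22.3, 214 and 877 CPM in control, SAFB and ERH) and mir-9 (9.06, 65.9 and 260 CPM). The part of the sums in the mir-466q difference was not tested. The list did not move as 1 group: of its 7 tested rows mir-218 and mir-9 rose in both knockouts, mir-122 in ERH and mir-143 in SAFB, whereas mir-302b was called lower in ERH (-1.57, edgeR adjusted p = 0.00198) and mir-199a and mir-1a were called in neither. The 8 haematopoietic markers all passed the filter, with sums, led by mir-142a, of 186800 to 213300 CPM over control, 190500 to 202600 CPM over SAFB and 155000 to 189500 CPM over ERH libraries. They moved in both directions: mir-150, mir-17 and mir-20a were called lower in both knockouts, mir-142a and mir-155 lower in ERH, mir-181a higher in both and mir-223 higher in SAFB, while mir-191 was called in neither. Of all tested rows 56% were called in SAFB and 53.8% in ERH, so calls among both sets of markers stand beside a high background.

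Over the 18 libraries, on the log2(CPM + 0.25) scale, mir-466i and mir-466q had a Pearson r of 0.735 (adjusted p = 0.0037) and a Spearman rho of 0.801 (adjusted p = 0.0011), by permutation. mir-466i and mir-466k had r of 0.798 (adjusted p = 0.0017) and rho of 0.817 (adjusted p = 0.001). mir-466q and mir-466k had r of 0.826 (adjusted p = 0.00042) and rho of 0.813 (adjusted p = 0.001). Without the 2 libraries farthest from the median, r was 0.76, 0.775 and 0.804 for these pairs in the same order. Within genotypes r was 0.286, 0.4 and 0.327 in control, 0.779, 0.936 and 0.873 in SAFB and 0.985, 0.929 and 0.952 in ERH. Over 6 libraries each, r was lower in control than in either knockout, a difference that was not tested. For mir-466i with mir-466q, r was 0.61, 0.9 and 0.905 in batches 1, 2 and 3. These were 3 of 21 pairs among 7 rows, adjusted together, and none of the other 18 had an adjusted p of r under 0.05 (r of -0.363 to 0.579). By rank, 1 of those 18 passed: mir-297a and mir-467f had rho of 0.7 (adjusted p = 0.0091) with r of 0.579 (adjusted p = 0.062). The libraries are repeats of 6 populations, the rows share library and depth, and reads shared between repeat sequences were not separable.

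**Figure D4:**
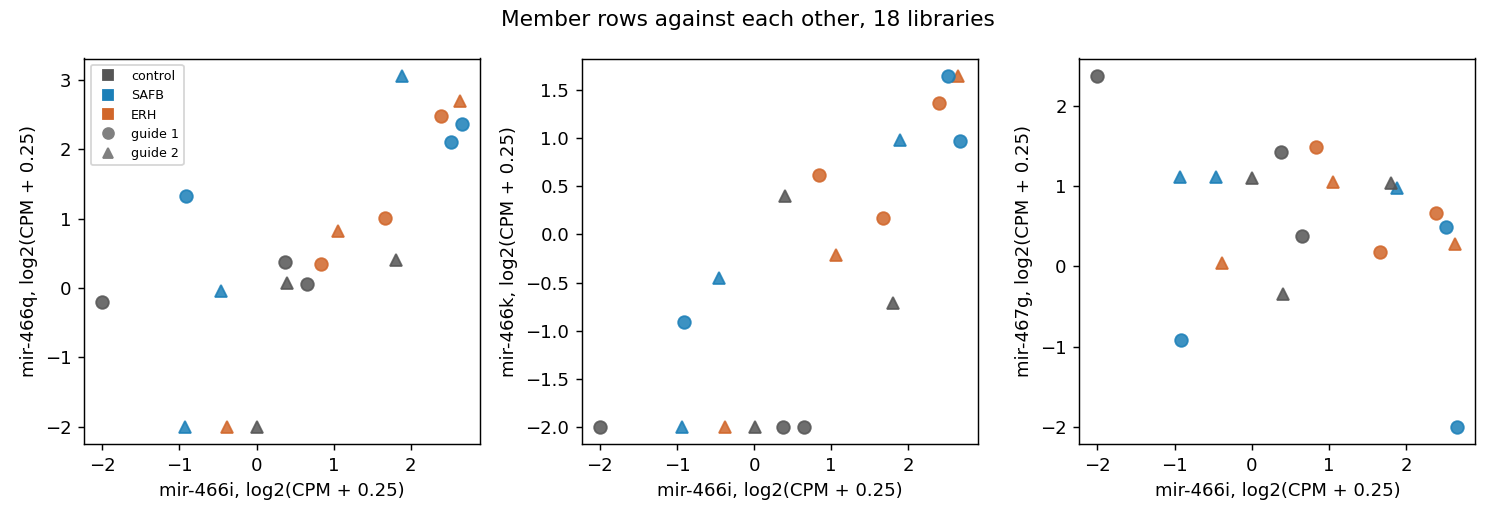
Level of mir-466q (left), mir-466k (middle) and mir-467g (right) against mir-466i in the 18 libraries, all as log2(CPM + 0.25); colours are genotypes, circles guide 1 and triangles guide 2, and points at -2 are counts of 0. The first 2 panels rise together (r of 0.735 and 0.798) and the third does not (r of -0.363).

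Rows outside the families can also hold the run in a mature sequence, but a row does not separate the arms of its hairpin, so its counts cannot be given to the arm with the run. Of 7 rows outside the families whose mature sequence holds such a run, 3 were tested. mir-574 had 11 counts in control, 62 in SAFB and 120 in ERH, and was called higher in both, with log2 fold changes of 2.21 (edgeR adjusted p = 0.00118) and 3.22 (edgeR adjusted p = 6.12e-06). It had at most 4 counts in a control library, so it met the filter through knockout libraries, like the tested members. A higher level of mir-574 in the knockouts was thus favoured by the choice of tested rows. mir-1187 was not called in SAFB or ERH, at -0.13 and 0.70 (edgeR adjusted p = 0.891 and 0.357). mir-32 was lower, at -0.39 and -0.24 (edgeR adjusted p = 0.000483 and 0.017). These rows were chosen by their sequence after the member values were known.

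mir-467g and mir-297a, the other members above 1 CPM in several libraries, showed no rise shared by both knockouts. mir-467g had 16, 4 and 7 counts in control guide 1 and 5, 5 and 2 in control guide 2. In SAFB it had 1, 0 and 4 (guide 1) and 7, 6 and 8 (guide 2), and in ERH 10, 3 and 4 (guide 1) and 4, 6 and 3 (guide 2). Pooled counts were 39, 26 and 30 in control, SAFB and ERH, and 16 of the 39 came from control guide 1 replicate 1. The ratio to control was 0.567 (0.331 to 0.955) in SAFB and 0.678 (0.407 to 1.12) in ERH, with intervals for counting error only. In batches 1, 2 and 3 the SAFB ratio was 0.318, 0.567 and 1.151, so its direction turned. mir-297a had 25, 13 and 40 counts in control, SAFB and ERH. Its ratio to control was 0.442 (0.208 to 0.897) in SAFB and 1.41 (0.835 to 2.426) in ERH, and ERH to SAFB was 3.19 (1.672 to 6.504). Its SAFB libraries had 1 to 4 counts, its control libraries 2 to 9 and its ERH libraries 0 to 13, so ERH covered the full range of the other genotypes. Without the filter ERH against SAFB was 1.57 for mir-297a (edgeR adjusted p = 0.107). In SAFB against control that fit called neither mir-467g (edgeR adjusted p = 0.381) nor mir-297a (edgeR adjusted p = 0.282). mir-467f had 6, 6 and 7 counts and mir-669d had 5, 2 and 1 in control, SAFB and ERH, too few to compare.

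**Figure D5:**
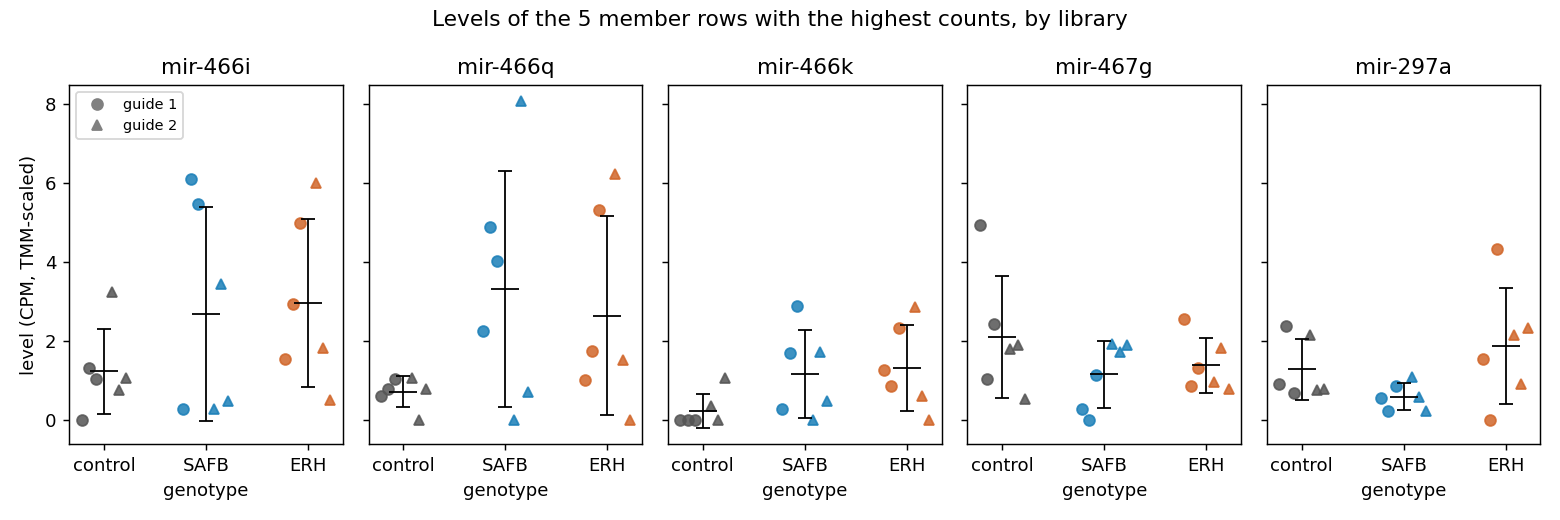
Level in CPM (TMM-scaled, vertical axis) of mir-466i, mir-466q, mir-466k, mir-467g and mir-297a in each library by genotype, with circles for guide 1, triangles for guide 2 and bars for mean ± SD (n = 6). For mir-466q all control libraries are at or below 1.08 CPM and the knockouts reach 8.07 and 6.23 CPM, with 1 library at 0 in each genotype.

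Summed over all 44 rows, the genotypes overlapped. In control the sum was 7.98 ± 2.78 CPM (SD, n = 6; 5.68 to 12.7). In SAFB it was 10.1 ± 5.55 CPM (3.94 to 15.9) and in ERH 11.3 ± 7.11 CPM (3.90 to 20.3). The mean log2 difference from control was 0.18 in SAFB and 0.32 in ERH, smaller than the pooled SD between libraries of 0.795. With spike-in scaling the SAFB difference was -0.05, but that scaling also moved the SAFB median over all 273 tested rows from 0.008 to -0.23. Over pooled counts, SAFB to control was 223 to 155, a ratio of 1.22 (0.992 to 1.511). ERH to control was 243 to 155, a ratio of 1.38 (1.125 to 1.702). These intervals cover counting error only, not the spread between libraries. Of the SAFB libraries 3 lay above all control libraries and 2 below, and of the ERH libraries 2 lay above and 1 below. Within batches 1, 2 and 3 the log2 difference was -0.83, 0.78 and 0.60 in SAFB and 0.59, -0.21 and 0.59 in ERH, so the direction turned between batches. By family, mir-466 rows summed to a mean of 2.84, 7.49 and 7.17 CPM in control, SAFB and ERH. Their ratio of pooled counts to control in batches 1, 2 and 3 was 0.696, 4.43 and 2.36 in SAFB, so its direction turned, and 3.31, 1.77 and 2.03 in ERH. In the same order the other families summed to 1.37, 0.597 and 1.88 CPM for mir-297, 2.60, 1.56 and 1.70 CPM for mir-467 and 1.17, 0.411 and 0.534 CPM for mir-669. Their ratios to control in batches 1, 2 and 3 also turned in 4 cases. These were mir-297 in ERH (1.243, 0.222 and 4.24) and mir-467 in SAFB (0.452, 0.319 and 1.535). The others were mir-669 in SAFB (1.252, 0.113 and 0.576) and in ERH (1.491, 0.064 and 0.964). In every batch mir-297 in SAFB (0.557, 0.196 and 0.691) and mir-467 in ERH (0.59, 0.601 and 0.857) were below 1. The families were not tested as sums. Within mir-466, most of the level came from mir-466i, mir-466k and mir-466q, which had 42, 159 and 150 counts in control, SAFB and ERH of the family's 56, 166 and 155.

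Other clusters known from placenta or embryonic stem cells were also low, where the 33 rows in Sfmbt2 alone had 52 counts. In the imprinted Dlk1-Dio3 cluster 16 of 48 rows had any count, with 69 counts in all, led by mir-369. In the mir-290 cluster, a hallmark of embryonic stem cells, 2 of 9 rows had any count, with 4 counts in all, led by mir-290a. None of these rows passed the filter, so no member of either cluster was tested.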

How the data were processed

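The authors deposited raw read counts, whole numbers that are not normalized, for 1006 microRNA rows and 4 spike-in rows in 18 libraries. Libraries were made with the QIAseq miRNA kit from RNA with spike-ins added, per the labels' protocols. SAMtools is named in the submitters' processing notes. Aligner, counting program, build, strand use, handling of reads matching several rows and collapsing of molecular identifiers are not given in the sources used here. Each row is a hairpin name, so arms and gene copies of that name are not separated.

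The main test was edgeR 4.0.16, quasi-likelihood (limma 3.58.1, R 4.3.3; DESeq2 1.42.0 as an alternative), with 1 mean per genotype over all 18 libraries, scaling by trimmed mean of M-values (TMM) and spike-ins left out. filterByExpr by population with a minimum count of 10 left 273 rows. Calls are Benjamini-Hochberg adjusted p under 0.05. Guides were compared in a fit with 1 mean per population. CPM was computed here with TMM factors. Ratios of pooled counts have exact 95% binomial intervals. Correlations used 100000 permutations. Positions and sequences came from RefSeq GRCm38.p6 tables, and strands and hosts from GENCODE M21.

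Members passing the filter were named, and the 5 others with the highest mean CPM. Members and lists were chosen with earlier results of these data known. Replicates are libraries of 1 population in labelled batches; nothing says they were separate cultures, so p-values measure the spread between libraries. Pairs of libraries of 1 population differed by more than sampling noise (chi-square per degree of freedom 33.0 to 191.7), and none was a duplicate. The batch label would pair libraries across populations, but the values showed no clear pairing. Deviations from population means correlated by 0.028 on average within a batch (45 pairs, -0.246 to 0.324). Between batches the average was -0.014 (90 pairs, -0.363 to 0.28). Ratios within a batch are thus not shown to be matched comparisons.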

Additional observations from a re-analysis of the deposited data

Results flagged for a closer look

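The rows named and the sums over all members and over the rows in Sfmbt2 alone were searched for a library far from the other 5 of its genotype, in 27 groups, of which 5 had one. Chance gives about 1 in 20 groups for continuous values, but in rows mostly at 0 a single count can meet the criterion by itself, so 5 of 27 cannot be set against that rate. In control, mir-466k was 1.07 CPM in guide 2 replicate 3, against 0 to 0.36 CPM in the others. mir-467f was 1.37 CPM in SAFB guide 2 replicate 1, against 0 to 0.288 CPM. It was 1.32 CPM in control guide 1 replicate 2, against 0 to 0.36 CPM. mir-669d was 0.333 CPM in ERH guide 1 replicate 3, which is 1 count, against 0 in the others. The rows in Sfmbt2 alone summed to 1.67 CPM in ERH guide 1 replicate 3, or 5 counts, against 0.24 to 0.61 CPM.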

How the results depend on the processing

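mir-466q was higher in both knockouts under all 32 alternatives, but its call was not stable. The alternatives refit the same 18 libraries or parts of them, and mir-466q met the filter through knockout counts. Their shared direction is therefore not separate support. In SAFB, 0 members were called with limma-voom and population as a random block (mir-466q log2 fold change 1.30, adjusted p = 0.241), with the replicate block (2.04, edgeR adjusted p = 0.0502), and without the control guide 1, control guide 2 or SAFB guide 1 population (edgeR adjusted p 0.105, 0.128 and 0.106). In these 5 fits 59%, 56.8%, 44.7%, 46.5% and 49.8% of all rows were called. The limma-voom fit estimated a correlation within populations of -0.074. With 1 mean per guide population in edgeR, mir-466q stayed called in SAFB (2.11, edgeR adjusted p = 0.0435), where 54.9% of all rows were called. With no filter 2 were called (20.5% of all rows), and leaving out each library gave 0 to 1 (50.9% to 57.5%). Over all alternatives the adjusted p of mir-466q in SAFB ran from 0.00562 to 0.241. In ERH, 1 member was called with total-count scaling (51.6% of all rows), with DESeq2 (53.8%), with no filter (23.7%) and without the SAFB guide 2 population (53.1%). There were 2 with spike-in scaling (33.3%; mir-466i 1.59, edgeR adjusted p = 0.0156), and 0 to 1 when each library was left out (50.5% to 54.2%). The adjusted p of mir-466q in ERH ran from 0.00122 to 0.383. For the 2 tested members the replicate block changed no other call. Over all 273 rows it called 155 in SAFB, 146 in ERH and 110 in ERH against SAFB. The main fit called 153, 147 and 108 in the same order. Calls of single rows outside the families are not given with this block. In ERH against SAFB 0 members were called under 32 of 32 alternatives. There mir-466q turned to 0.33 with spike-in scaling, which moved the median over all rows from 0.042 to 0.57, and ran from -0.83 to 0.15 when each library was left out. mir-466i turned to -0.45 without the SAFB guide 2 population and ran from -0.22 to 0.60. Against a median over all 273 rows of 0.008 in SAFB and -0.06 in ERH, spike-in scaling put it at -0.23 and 0.23, and total counts put it at 0.24 in ERH. Summed over the 2 passing rows alone, the log2 difference moved to 0.98 in SAFB and 1.22 in ERH; these rows met the filter through their knockout counts. The other causes were not tested. A filter at a mean of 100 counts left 153 rows and no member, and no 2 of the 8 member sequences at hand were identical, so the planned merging of rows with the same sequence was not run; the other rows were not compared. The Sfmbt2 ratios without each library were chosen after seeing the data. Depth limits every statement: most members sit at or under 3 counts a library.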
